A study of Homo sapiens with 4 samples.

Results

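The insulin-like growth factor (IGF) axis was followed through 10 of the 25609 genes measured in HK2 cells, a human kidney proximal tubule epithelial line immortalised with papillomavirus oncogenes. The genes are 6 IGF binding proteins (IGFBP2, IGFBP3, IGFBP4, IGFBP5, IGFBP6 and IGFBP7), 2 receptors (IGF1R and IGF2R) and 2 receptor adaptors (IRS1 and IRS2). They were taken by symbol, whatever their values, and 9 of them passed the expression filter. Total RNA was sequenced from 2 libraries labelled TGFbeta1 (transforming growth factor β1, TGF-β1) and 2 labelled control, all of wild-type genotype. Treated cells were serum-starved for 24 h and then kept for 24 h in 20 ng/mL TGF-β1, and 4-thiouridine, a uridine analogue taken up into new RNA, was present at 100 μM during the final 20 h. One treatment text stands on every sample, so controls are assumed to differ by the cytokine alone. All libraries come from 1 cell line, and the labels do not say whether the replicates were separate cultures, so the p-values reflect library-to-library spread that could be technical only.

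IGF binding proteins are secreted proteins that bind IGF1 and IGF2 in the extracellular space, prolong their life and control their access to the receptor, and several also act on cells without IGF. IGFBP7 is a distant relative that binds IGFs weakly and is released by stressed kidney tubules, where it serves as a urinary marker of acute injury. IGF1R is the receptor tyrosine kinase that carries the signal, IRS1 and IRS2 are the docking proteins that couple it to PI3 kinase, and IGF2R, the cation-independent mannose 6-phosphate receptor, removes IGF2 and also binds the latent form of TGF-β1.

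The series asks how miR-17 and miR-20a act in renal epithelium, so a seed match of these microRNAs in the IGF axis is shown here in sequence. Both share the seed AAAGUGC (bases 2 to 8, in capitals), and the mature sequences are from RefSeq (GRCh38.p14).
miR-17-5p: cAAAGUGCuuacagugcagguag
miR-20a-5p: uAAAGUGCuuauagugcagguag
The complementary word GCACTTT was searched on the transcript strand in the longest 3′ UTR of each gene in GENCODE release 29. The match in IGF2R is shown as an example, without a count over the 10 genes (chromosome 6, 160106688 to 160106694, plus strand, hg38), with the matching letters in capitals. Of all 19421 UTRs searched, 22.2% held the word. The UTR of IGF2R has 6420 bases, and that share takes no account of length.
IGF2R: ccctttatgaggcaGCACTTTcatttttc
The match is not followed by an A in the transcript. IGF2R is also among the genes below for which no change was detected with TGF-β1. Whether these microRNAs act on IGF2R was not tested.

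The deposited unit, RPKM, divides the reads of a gene by its exon length and by a library size, so levels can be compared between genes of a library. That size was not the total of recovered reads, as given below with the totals. In the TGF-β1 libraries the order was IGFBP7, IGFBP6, IGFBP3, IRS2, IRS1, IGF2R, IGF1R, IGFBP4, IGFBP5 and IGFBP2, and no neighbouring pair overlapped between libraries down to IGFBP5 and IGFBP2. In the control libraries IRS2 stood above IGFBP3, and IGFBP4 and IGF1R overlapped. IGFBP7 lay at the 98.9th percentile of tested genes with TGF-β1 and at the 98.4th in controls, and IGFBP6 at the 96.1st and the 97.3rd. IGFBP3 lay at the 92.9th percentile with TGF-β1 and at the 85.9th in controls.

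**Figure D1:**
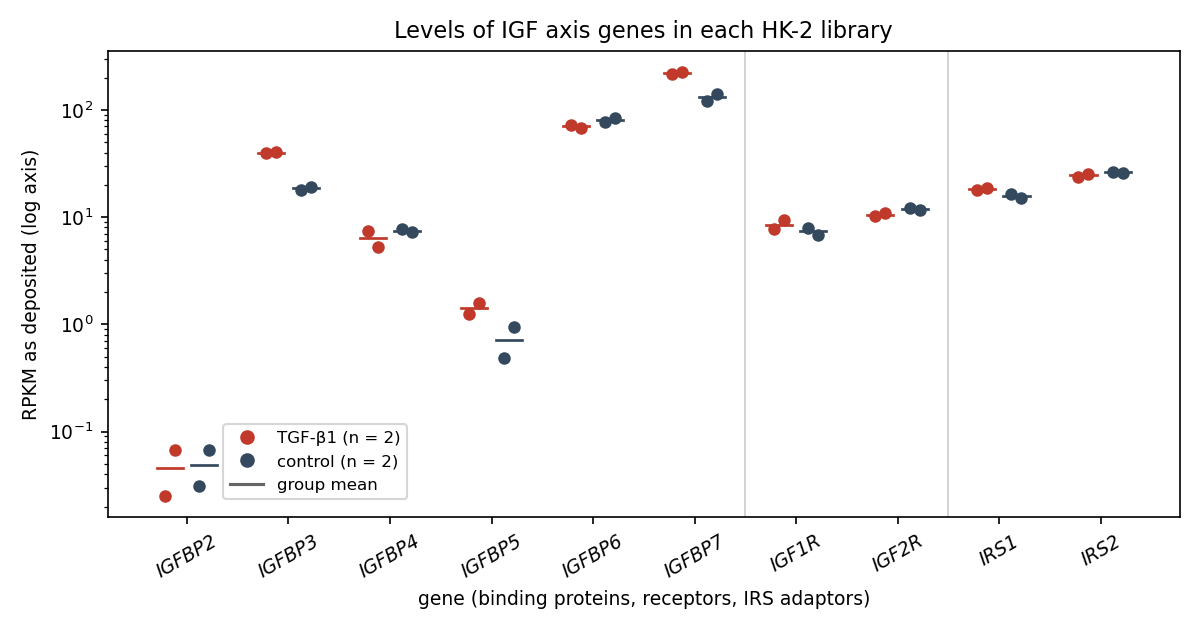
RPKM of the 10 genes (log axis) in each library, with TGF-β1 libraries in red to the left and control libraries in dark blue to the right of each gene, and a bar at each group mean (n = 2). IGFBP3 and IGFBP7 show the clearest separation, with 39.3 and 40.2 RPKM against 18.0 and 19.1 RPKM for IGFBP3.

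Of the 9 genes tested, 2 rose with TGF-β1 (IGFBP3 and IGFBP7), none fell and 7 did not pass, at an adjusted p below 0.05 by limma on log2(RPKM + 0.5). Among all 16590 tested genes 9.12% passed (1513 genes), and 6.12% passed as higher, against 22.2% of the members. With 9 genes tested, nothing particular to the set is read from that count. At an unadjusted p below 0.05, 3 of the 9 genes passed, the other being IGFBP6, where 25.0% of all tested genes did so (4141 of 16590). That count is close to the share over all genes. The median log2 fold change of the 9 genes was 0.19, against 0.03 over all tested genes. The 2 TGF-β1 libraries lay wholly above or below both controls in 7 of the 9 genes (4 above, 3 below). Of all tested genes 54.1% did so, 29.5% above and 24.6% below.

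IGFBP3, the main IGF carrier of plasma and a growth inhibitor in many epithelial cells, measured 39.3 and 40.2 RPKM with TGF-β1 against 18.0 and 19.1 RPKM in controls. Both treated libraries stood far above both controls, and the replicates of each group lay close together. The group means were 39.8 ± 0.65 RPKM with TGF-β1 and 18.6 ± 0.76 RPKM in controls (SD, n = 2 each), a 2.14-fold rise. On the log2 scale the change was 1.08 (SE 0.07, 95% interval 0.89 to 1.26, adjusted p = 0.00317, limma). The gene (ENSG00000146674.14, hg38 chromosome 7, 45912245 to 45921874, minus strand) had 746 and 865 reads with TGF-β1 and 279 and 410 in controls, as recovered from the RPKM values. These are bulk libraries, so more transcript per cell and a larger share of cells that make it cannot be told apart.

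The window around an annotated IGFBP3 start, 250 bases before to 50 after it (RefSeq, GRCh38.p14, chr7:45921223-45921522, minus strand, printed 5′ to 3′), is shown because this gene gave the largest called change of the set. It lies within the gene span given above, which begins at 45921874 on the minus strand, so the annotations differ on the start.
IGFBP3: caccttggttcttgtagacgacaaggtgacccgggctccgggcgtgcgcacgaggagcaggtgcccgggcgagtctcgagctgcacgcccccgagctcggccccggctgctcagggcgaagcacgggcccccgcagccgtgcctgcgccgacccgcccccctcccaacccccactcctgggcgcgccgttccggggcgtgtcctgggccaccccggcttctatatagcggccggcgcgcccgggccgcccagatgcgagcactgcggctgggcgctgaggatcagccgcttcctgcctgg
The window is 74.7% G and C. On both strands it was searched for CAGACA (a SMAD box, present in 16.9% of 35116 such windows), TGACTCA (AP-1, 4.95%), GTAAACA (FOXO, 3.42%) and TATAAA (11.5%), and no match was present, so no letters are in capitals. Only these exact words were searched. The window does hold the related letters tatatag, which were not counted, and whether they act was not tested. IGFBP7 had no window and was not searched. Of the 9 genes with a window, 2 held a match. IGFBP4 has TATAAA 29 bases before its start and IGFBP6 has GTAAACA 186 bases before its start.

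IGFBP7 (ENSG00000163453.11, chromosome 4, 57030773 to 57110385, minus strand) was the most abundant of the 10 genes in every library. It measured 214 and 226 RPKM with TGF-β1 and 122 and 140 RPKM in controls. The groups did not overlap, although the controls were spread more widely. The means were 220 ± 8.1 RPKM with TGF-β1 and 131 ± 13 RPKM in controls (SD, n = 2 each), 1.68-fold higher with TGF-β1. On the log2 scale the change was 0.75 (SE 0.09, 95% interval 0.53 to 0.97, adjusted p = 0.0108, limma), on 1718 and 2051 reads with TGF-β1 and 797 and 1269 in controls. The call was lost without a trend of variance with expression level (called the variance trend hereafter) (adjusted p = 0.0807, limma). IGFBP7 overlaps POLR2B on the opposite strand by 396 bases. POLR2B had 378 and 387 reads with TGF-β1 and 297 and 433 in controls and did not pass (log2 fold change -0.05, adjusted p = 0.782, limma). The antisense IGFBP7-AS1 had at most 2 reads in any library.

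IGFBP6, which prefers IGF2 over IGF1, was the next most abundant. It measured 72.5 and 68.0 RPKM with TGF-β1 and 77.6 and 84.1 RPKM in controls. Both treated libraries lay below both controls, by less than the gap seen for IGFBP7. With a log2 fold change of -0.20 (95% interval -0.39 to -0.02) the gene did not pass (adjusted p = 0.17, limma). With libraries scaled by their total of recovered reads it passed at -0.38 (adjusted p = 0.0367, limma), and after quantile normalisation at -0.43 (adjusted p = 0.0231, limma). Whether IGFBP6 is lower thus depends on how the libraries are scaled.

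IGFBP4, a secreted inhibitor of IGF action, measured 7.38 and 5.26 RPKM with TGF-β1 and 7.71 and 7.20 RPKM in controls. The second TGF-β1 library stood below the other 3, and the first lay within the control range. Its log2 fold change of -0.24 had a 95% interval reaching from -0.70 to 0.22 (adjusted p = 0.483, limma), on 54 to 74 reads per library. Without TGF-β1 replicate 2 the value was -0.01, and without TGF-β1 replicate 1 it was -0.47.

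IGFBP5, a binding protein held in the extracellular matrix, measured 1.25 and 1.57 RPKM with TGF-β1 and 0.481 and 0.941 RPKM in controls. The ratio of the means was 1.98, close to that of IGFBP3. The controls differed from each other by more than the lower TGF-β1 library stood above the higher control. It had 33 and 47 reads with TGF-β1 and 10 and 28 in controls, and its log2 fold change of 0.68 had a 95% interval reaching from -0.08 to 1.44 (adjusted p = 0.246, limma). Leaving out control replicate 1 gave 0.40 and leaving out control replicate 2 gave 0.96. IGFBP2, which lies 7668 bases from IGFBP5 on chromosome 2 in convergent orientation, had 0 and 1 reads with TGF-β1 and 0 and 1 in controls. It was below the filter, and a difference was not detectable at this depth. IGFBP1, which lies next to IGFBP3 in the same way with 18576 bases between them, had 0 reads in all 4 libraries. A count of 0 over a group allows up to 3 reads.

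The RPKM of the 6 binding proteins summed to 335 and 341 with TGF-β1 and to 226 and 251 in controls. IGFBP7 held 64.0% and 66.2% of that sum with TGF-β1 and 54.0% and 55.7% in controls. IGFBP3 held 11.7% and 11.8% with TGF-β1 and 7.99% and 7.60% in controls. The share of IGFBP6 was smaller, with 21.7% and 19.9% with TGF-β1 against 34.4% and 33.5% in controls. The ratio of IGFBP6 to IGFBP3 RPKM was 1.85 and 1.69 with TGF-β1 against 4.30 and 4.40 in controls. An exact two-sided permutation test of that ratio gave p = 0.333, the smallest that 2 libraries against 2 allow. Each of the 6 ratios tested did so (adjusted p = 0.333, permutation test). No test of ratios was planned, and the 6 were picked from a longer set, so nothing is read from their all reaching it. The ratio of IGFBP5 to IGFBP3, which was not tested, overlapped between groups (0.032 and 0.039 with TGF-β1, 0.027 and 0.049 in controls). A ratio within a library does not depend on how that library is scaled.

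**Figure D2:**
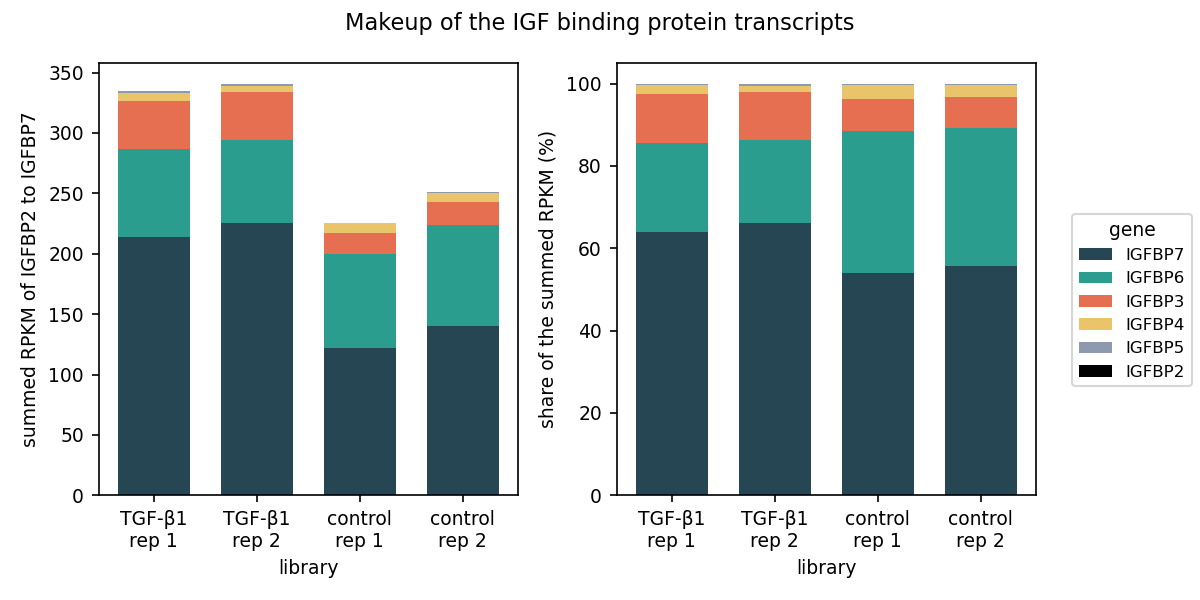
Summed RPKM of the 6 IGF binding proteins (left panel) and the share of each in percent (right panel), with a bar for each library and the TGF-β1 libraries to the left of the controls. The sum was 335 and 341 RPKM with TGF-β1 against 226 and 251 RPKM in controls, with larger shares of IGFBP7 and IGFBP3 and a smaller share of IGFBP6.

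No change was detected in either receptor. IGF1R measured 7.67 and 9.33 RPKM with TGF-β1 and 7.85 and 6.87 RPKM in controls. The groups overlapped, and the log2 fold change of 0.19 had a 95% interval reaching from -0.17 to 0.55 (adjusted p = 0.478, limma). IGF2R measured 10.3 and 10.8 RPKM with TGF-β1 and 12.1 and 11.7 RPKM in controls. Both treated libraries lay a little below the controls, with a log2 fold change of -0.17 and bounds at 95% of -0.40 to 0.06 (adjusted p = 0.34, limma). The pseudogene CHP1P2, which lies within IGF2R on the same strand, had 43 to 54 reads per library.

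The docking proteins likewise did not pass. IRS1 measured 17.8 and 18.7 RPKM with TGF-β1 and 16.4 and 15.1 RPKM in controls, with a log2 fold change of 0.21 and bounds at 95% of -0.01 to 0.43 (adjusted p = 0.221, limma). IRS2 measured 23.9 and 25.3 RPKM with TGF-β1 and 26.4 and 25.9 RPKM in controls, with a log2 fold change of -0.09 and bounds at 95% of -0.27 to 0.10 (adjusted p = 0.525, limma). For all 4 receptors and adaptors, a change of the size seen in IGFBP7 lies outside the interval. The ratio of IRS1 to IRS2 was 0.746 and 0.740 with TGF-β1 and 0.621 and 0.585 in controls (exact two-sided permutation p = 0.333, the smallest possible).

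**Figure D3:**
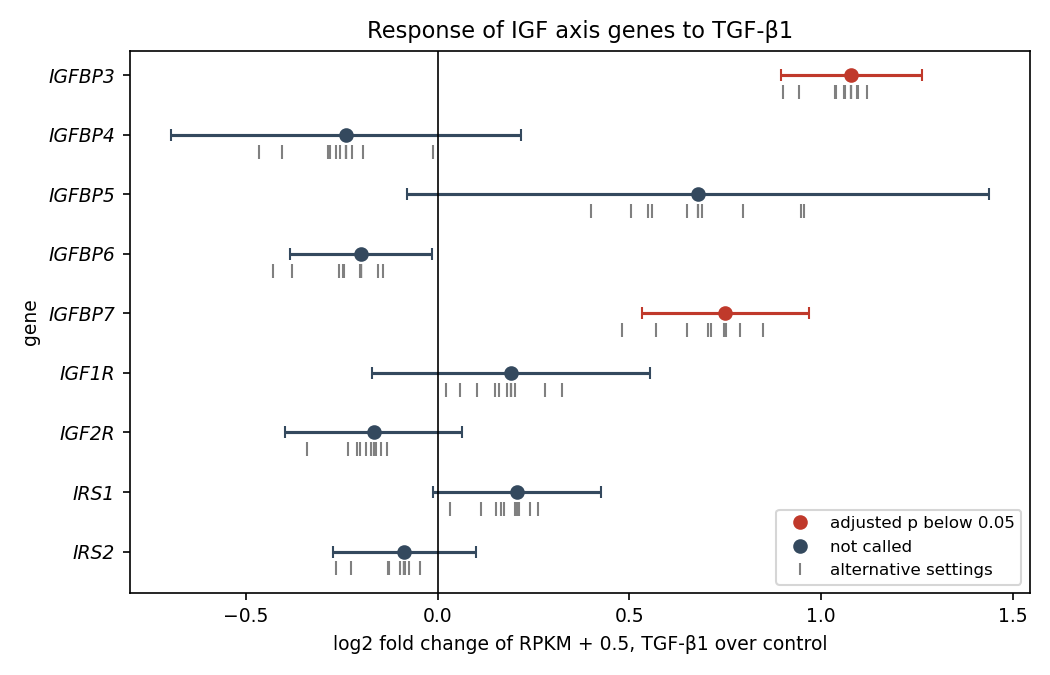
Log2 fold change of RPKM + 0.5, TGF-β1 over control, for the 9 tested genes, with 95% confidence intervals from limma (2 libraries per group) and grey ticks for the value under each alternative setting. IGFBP3 (1.08) and IGFBP7 (0.75) passed and are drawn in red, and the ticks of every gene stay on the side of 0 of its main value.

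Around these genes, 97 others of the IGF pathway were placed in 8 lists. Of these, 5 were not among the matched symbols and 14 were below the filter. Of the 78 tested, 7 rose, 6 fell and 65 did not pass, which is 16.7% called against 9.12% of all tested genes. With a minimum mean of 2 RPKM, 1750 of 10440 tested genes passed, a larger share than 9.12%. The share over all genes thus depends on the minimum level, and no excess is read from the shares of the lists. The ligands themselves were nearly absent. IGF1 had 0 and 1 reads with TGF-β1 and 0 and 1 in controls, and IGF2 had 0 and 2 with TGF-β1 and 1 and 2 in controls. The third ligand listed, INS, was not among the symbols matched in the deposited values.

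The list of the ternary complex, the proteases that cut binding proteins and the inhibitors of those proteases held 7 tested genes. Of these 3 rose and 1 fell (57.1% called, against 9.12% of all tested genes). Their median log2 fold change was 0.55, against 0.03 over all tested genes. The list is short and was chosen with earlier results of these data known. No set test was run, and no excess is read from it. HTRA1, a secreted serine protease that carries an IGFBP-like domain and cleaves IGFBP5, measured 27.9 and 29.6 RPKM with TGF-β1 and 4.80 and 5.57 RPKM in controls. That is a 5.54-fold rise (log2 fold change 2.37, adjusted p = 0.00143, limma), larger than that of any of the 10 genes, on 245 and 295 reads with TGF-β1 and 34 and 55 in controls. MMP14, a membrane-bound matrix metalloprotease, measured 87.5 and 93.8 RPKM with TGF-β1 and 53.9 and 53.5 RPKM in controls (log2 fold change 0.75, adjusted p = 0.0055, limma). STC2, a stanniocalcin that inhibits the binding protein protease PAPPA, fell to 17.0 and 17.6 RPKM with TGF-β1 against 23.4 and 25.1 RPKM in controls (log2 fold change -0.48, adjusted p = 0.0289, limma).

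ADAM12, a metalloprotease that cleaves IGFBP3 and IGFBP5, also rose (2.48 and 2.75 RPKM with TGF-β1 and 0.673 and 0.939 RPKM in controls, adjusted p = 0.0344, limma), and is named to complete the count. PAPPA itself measured 2.96 and 3.29 RPKM with TGF-β1 and 1.69 and 2.29 RPKM in controls and did not pass (adjusted p = 0.178, limma). The STC2 call was lost without control replicate 2, TGF-β1 replicate 1 or TGF-β1 replicate 2 (adjusted p = 0.0732, 0.12 and 0.105, limma). The ADAM12 call was lost whichever library was left out (adjusted p = 0.053 to 0.165, limma). Without the variance trend MMP14, STC2 and ADAM12 missed (adjusted p = 0.0662, 0.129 and 0.0535, limma), and ADAM12 also missed with no filter on low values (adjusted p = 0.0651, limma). IGFALS, the third partner of the ternary complex in plasma, had 0 reads in both TGF-β1 libraries and 1 and 4 in controls.

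Of 7 tested genes that share the IGFBP domain or family, 1 rose and 1 fell (28.6% called, against 9.12% of all tested genes). Their median log2 fold change was -0.40, against 0.03 over all tested genes. The gene that rose was again HTRA1. CCN1, a matricellular protein with an N-terminal IGFBP domain, fell to 97.8 and 116 RPKM with TGF-β1 against 212 and 243 RPKM in controls (log2 fold change -1.09, adjusted p = 0.00896, limma). Its relative CCN2 measured 58.8 and 69.1 RPKM with TGF-β1 and 40.4 and 52.1 RPKM in controls and did not pass (adjusted p = 0.125, limma). The CCN1 call was lost without the variance trend (adjusted p = 0.0642, limma).

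Among 8 tested receptors and surface binders outside the set, 2 rose and 1 fell (37.5% called, against 9.12% of all tested genes). Their median log2 fold change was 0.16, against 0.03 over all tested genes. The integrin chains ITGA5 and ITGAV, alpha subunits of fibronectin and vitronectin receptors, were 2.17-fold and 2.39-fold higher with TGF-β1 (log2 fold change 1.09 and 1.20, adjusted p = 0.00469 and 0.0112, limma). CAV1, the caveolar coat protein caveolin, fell to 10.9 and 9.03 RPKM with TGF-β1 against 21.8 and 27.8 RPKM in controls (log2 fold change -1.27, adjusted p = 0.0131, limma). ITGAV and CAV1 missed without the variance trend (adjusted p = 0.0586 and 0.0652, limma). INSR, the insulin receptor, which pairs with IGF1R in hybrid receptors, measured 1.55 and 1.84 RPKM with TGF-β1 and 2.98 and 2.74 RPKM in controls. The groups did not overlap, but INSR did not pass (log2 fold change -0.61, 95% interval -1.10 to -0.13, adjusted p = 0.122, limma).

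Downstream of the receptor, 1 of 18 adaptors and negative regulators rose and 1 fell (11.1% called). In the PI3K, AKT and mTORC1 relay 1 of 23 genes rose (4.35%), among FOXO factors and FOXO targets 2 of 13 fell (15.4%), and of 3 IGF2 mRNA-binding proteins none passed. These shares lie on either side of the 9.12% of all tested genes. SHC1, the adaptor that links the receptor to RAS, was 1.53-fold higher (log2 fold change 0.61, adjusted p = 0.0197, limma) and SH2B2, an adaptor of the insulin receptor, was lower (-0.56, adjusted p = 0.0329, limma). EIF4EBP1, the translation repressor that mTORC1 phosphorylates, measured 147 and 157 RPKM with TGF-β1 and 93.9 and 104 RPKM in controls (log2 fold change 0.62, adjusted p = 0.0137, limma). CITED2, a coregulator of CBP and p300, fell to 24.0 and 21.7 RPKM with TGF-β1 against 110 and 128 RPKM in controls (-2.36, adjusted p = 0.00132, limma). TXNIP, an inhibitor of thioredoxin and glucose uptake, fell to 163 RPKM in both TGF-β1 libraries against 198 and 194 RPKM in controls (-0.27, adjusted p = 0.0482, limma). The smallest p among the IGF2 mRNA-binding proteins was that of IGF2BP1 (0.34, adjusted p = 0.0837, limma), and at an unadjusted p below 0.05 it was the only 1 of the 3, beside 25.0% of all tested genes. The calls of SH2B2 and TXNIP were lost whichever library was left out (adjusted p = 0.0696 to 0.14 and 0.109 to 0.17, limma), that of SHC1 without TGF-β1 replicate 2 (adjusted p = 0.0731, limma), and those of SHC1, SH2B2, EIF4EBP1 and TXNIP without the variance trend (adjusted p = 0.104, 0.105, 0.0961 and 0.271, limma). TXNIP also missed with no filter on low values (adjusted p = 0.0713, limma).

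**Figure D4:**
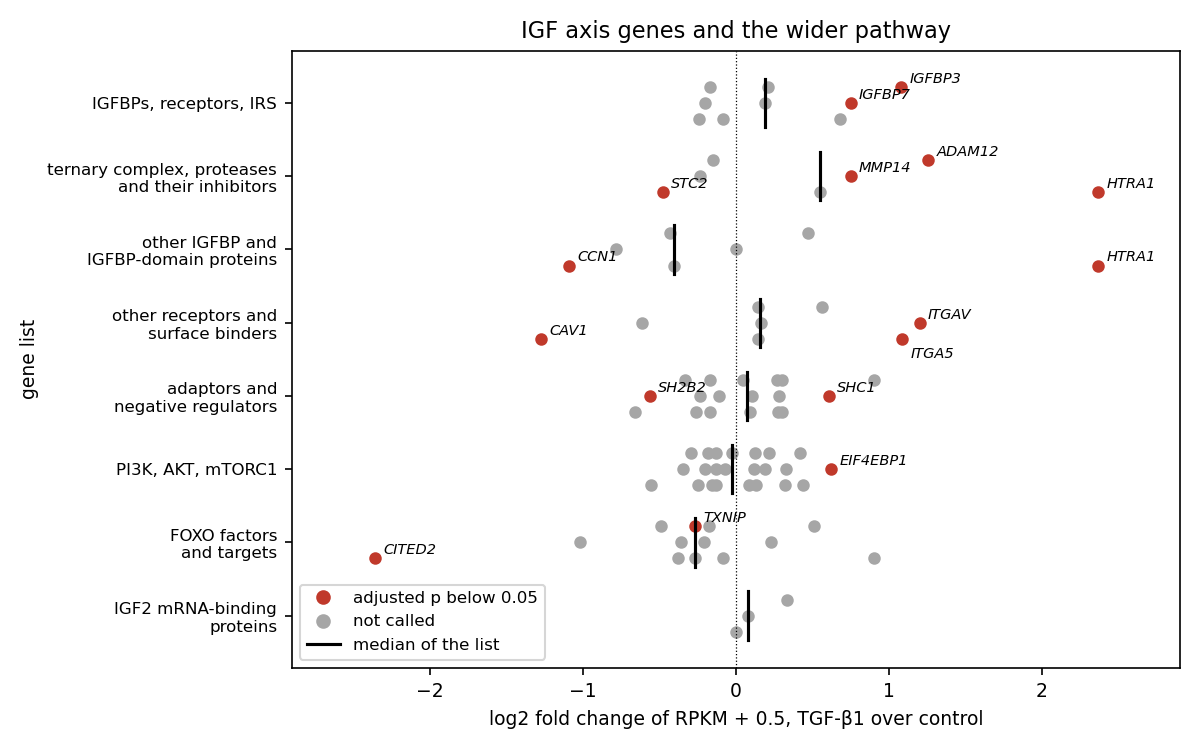
Log2 fold change of RPKM + 0.5, TGF-β1 over control, for each tested gene (points) of the IGF binding protein, receptor and adaptor set and of 7 lists of the wider pathway, with the list median as a black bar. Called genes are red and named. HTRA1 (2.37) and CITED2 (-2.36) are the farthest out on either side, and HTRA1 appears in both lists that hold it.

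The genes with profiles most like the called members were sought among 13359 tested genes with a mean of at least 1 RPKM, by Euclidean distance between centred log2(RPKM + 0.5) values over the 4 libraries. For IGFBP3 the nearest were VASP (distance 0.03, 49.2 and 51.2 RPKM with TGF-β1 and 22.3 and 24.2 RPKM in controls) and CDK2AP2 (0.03, 84.4 and 86.3 RPKM against 38.2 and 40.3 RPKM in controls). For IGFBP7 they were SPOCK1 (0.03, 25.3 and 26.1 RPKM with TGF-β1 and 14.2 and 16.2 RPKM in controls) and ENSG00000223599 (0.04). With 4 libraries many genes have like profiles, and the ranking is a description only.

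Recovered reads totalled 4638787 and 5451702 with TGF-β1 and 3336692 and 4801657 in controls. The library sizes behind the deposited values were 0.896 and 0.864 of these totals with TGF-β1 and 1.016 and 0.979 in controls. As deposited, the log2 fold changes of IGFBP3 and IGFBP7 were 1.08 and 0.75. Scaled by total recovered reads they were 0.90 and 0.57. The tubular label was checked against markers. PAX8, a renal lineage factor, measured 15.5 and 14.7 RPKM with TGF-β1 and 44.8 and 42.2 RPKM in controls (adjusted p = 0.00198, limma), and GGT1 was also above the filter, whereas the brush-border and endocytic genes CUBN, ANPEP, SLC34A1 and AQP1 had 0 to 5 reads per library. The endothelial genes VWF and CDH5 and the podocyte gene NPHS1 had 0 reads in all libraries. Of 4 fibroblast markers LUM alone passed the filter, and the 4 summed to 8.95 and 6.91 RPKM with TGF-β1 and 12.3 and 13.0 RPKM in controls. The 3 podocyte markers, of which SYNPO alone passed the filter, summed to 5.95 and 7.12 RPKM with TGF-β1 and 4.40 and 5.01 RPKM in controls. The 3 leukocyte markers, of which 2 passed the filter, summed to 1.71 to 2.67 RPKM in all libraries. The part of these shifts in the changes of IGFBP3 and IGFBP7 was not tested.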

How the data were processed

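The authors deposited RPKM values for 25609 genes. The tools listed, per the submitters' processing notes, are STAR 2.7.1a, bcl2fastq 2.20.0.422 and DESeq2, with build hg38. Their roles, the annotation and the strand setting are not given. Multiplied by GENCODE 29 exon length, values fell on whole reads plus 0.5 (tolerance 0.01 read) for 100% of genes with the same identifier version. For other versions, IGFBP6, IGF1R and IGF2R among them, the length was inferred from the values. Reads were recovered for 99.6% of genes and used to show depth and for 1 scaling.

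Genes with a mean of at least 0.5 RPKM (16590) entered a limma fit (version 3.58.1, R 4.3.3) of log2(RPKM + 0.5) with a variance trend and Benjamini-Hochberg adjustment over all tested genes, after a test on simulated data. This scale understates the change of low genes. Ratios called fold are of mean RPKM. The main fit was not paired, and a replicate block was among the alternatives. Symbols were matched for 25312 identifiers, and 9 of the 10 genes, all but IGFBP7, had a promoter window. Counting floors cover counting error only.

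All 10 genes are named. In each list the rule takes the 3 called genes with the smallest p, or the 1 with the smallest p, and for called members the 2 nearest profiles. INSR, PAPPA, CCN2, IGFALS, ADAM12, POLR2B, CHP1P2 and the ratio of IRS1 to IRS2 were chosen after their values were seen. The genes and lists were chosen with earlier results of these data known. 1 further sequence match and 1 further marker gene are not reported here.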

Additional observations from a re-analysis of the deposited data

How the results depend on the processing

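No gene of the set changed direction under any of the 13 alternatives. IGFBP3 passed in all of them (log2 fold change 0.90 to 1.12) and IGFBP7 in 12 (0.48 to 0.85), missing without the variance trend (0.75, adjusted p = 0.0807, limma). IGFBP6 passed with scaling by total recovered reads (-0.38) and after quantile normalisation (-0.43), which brought the count of called members to 3. Scaling by total reads multiplied all values of a library by 1 factor, 0.896 and 0.864 with TGF-β1 and 1.016 and 0.979 in controls. Why the deposited library sizes differ from the recovered totals was not tested. Why IGFBP6 passed after quantile normalisation was also not tested. Without the variance trend 424 genes were called in place of 1513, with 1 member and 3 of the listed pathway genes in place of 2 and 13. Leaving out 1 library at a time gave 574 to 1138 called genes, 2 members and 9 to 11 pathway genes, and the lone library of a group was then assumed to vary like the other group. Calls were 67.1% higher genes as deposited, 50.4% after quantile normalisation and 42.6% after scaling by total reads, where the median over tested genes was -0.13 on the log2 scale in place of 0.03. Replicate numbers did not pair the libraries in the labels, and deviations of same-numbered libraries correlated at r = 0.0261 over 16590 genes. A replicate block left IGFBP3 and IGFBP7 called (adjusted p = 0.00606 and 0.0082, limma) with 1344 calls in all, and 4 in place of 2 called genes of the IGFBP-domain list and 1 in place of 2 of the FOXO list. ADAM12 and TXNIP then missed (adjusted p = 0.0529 and 0.0523, limma). IGFBP5 was not tested at a minimum of 2 RPKM. Depth limits genes with few reads, such as IGFBP2, IGFBP5 and the ligands.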
